A study of Camellia sinensis with 9 samples.

Results

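Antisense transcripts, assembled RNAs that lie on the strand opposite an annotated gene and overlap its exons, were examined in 3 organs of the tea plant (Camellia sinensis), its flowers, roots and leaves. They were taken as the rows of the deposited abundance table whose class code is x, with each transcript described on its own and not summed over its locus. There were 1764 of them among 109879 assembled transcripts (1.61%), in 1221 loci. The libraries came from untreated plants, with 3 libraries for flower, 3 for root and 3 for leaf. The labels name the organ and no cultivar, age or developmental stage, and they do not say whether libraries of an organ came from separate plants, so each p-value is set against a spread among libraries that may be technical only. In whole organs, fewer cells of a type and less RNA per cell cannot be told apart. A library is named by its organ and the number its title carries, and the leaf column whose number is in no leaf title is named the unnumbered leaf library. The files pair no gene names with the identifiers, so the organ labels could not be checked against marker genes.

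In plants, natural antisense transcripts arise where neighbouring genes overlap at their ends or where a second promoter lies within or beside a gene and is read in the other direction. Some are known to act on the gene they face, through transcriptional interference, chromatin changes or small RNAs made from the double-stranded overlap. In Arabidopsis, the COOLAIR transcripts opposite the flowering repressor FLC are the best studied case. The libraries here were made from RNA depleted of ribosomal RNA, which keeps RNAs without a poly(A) tail. The strand setting of the authors' counting is not given in the sources used here, so it is not known whether reads of the 2 strands were kept apart where an antisense transcript overlaps its gene. Every level below is subject to that limit.

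The antisense transcripts were divided almost evenly between the plus strand (867) and the minus strand (897), and none was without a strand. Their span along the scaffold, introns included, was between 234 and 434437 nt with a median of 4039 nt and an interquartile range of 1072 to 15209 nt (1071.5 to 15208.5). Reference transcripts, those that match the annotation, had a median span of 1990 nt, and stranded intergenic transcripts one of 2515 nt (2514.5). Splice variants of annotated genes had a longer one, 7828.5 nt, and all transcripts together one of 2898 nt. Among the transcripts tested below, the median was 3970 nt for antisense and 3883 nt for all. The table gives no exon structure, so spliced length is unknown. Most antisense loci were simple: 926 of the 1221 held 1 antisense transcript, 192 held 2 and 103 held 3 or more, with 15 at most. In 1092 loci every transcript was antisense, 96 held antisense and intergenic transcripts alone, and 27 also held a reference transcript.

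Each antisense transcript was matched to the gene it faces by position, since the table names no scaffold and no opposite gene. Locus numbers were taken to run along scaffolds, and a reference transcript on the other strand, with an overlapping span and a locus number within 10, was taken as a candidate. All 1764 antisense transcripts had at least 1 candidate, against 344 (19.5%) when the same search was made at locus numbers 1000 higher. A single candidate locus was found for 1400 of them (79.4%), and these pairs are used below. In 1143 pairs the locus numbers were neighbours, and in 1382 they were within 3.

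The pairs fell into 4 arrangements. These counts leave out the 364 antisense transcripts with several candidate loci. At MSTRG.16757.1 and MSTRG.3032.1, which are among those, every candidate lay inside the antisense span. The most frequent arrangement over all 1764 antisense transcripts is therefore not known. Tail to tail, where the 3′ ends overlap, was the most frequent with 482 pairs (34.4%), and the median overlap there was 324 nt. The reference span lay inside the antisense span in 371 pairs (26.5%), where antisense transcripts were long, with a median span of 15902 nt. The antisense span lay inside the reference span in 282 pairs (20.1%), where antisense transcripts were short, with a median of 713 nt. Head to head, where the 5′ ends overlap, was the least frequent with 265 pairs (18.9%) and a median overlap of 261 nt. Over all pairs the overlap had a median of 532 nt, which was 17.1% of the antisense span.

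Levels were given by the authors as FPKM, in which fragments are scaled for transcript length and library size. At a length of 1000 nt, 1 FPKM stood for 14.1 to 18.0 fragments in flower, 14.0 to 17.9 in root and 23.1 to 25.9 in leaf, as read from the steps of low values in unstranded, single-transcript loci. Among antisense transcripts, 19 were listed at 0 in every library, 261 never reached FPKM 1, 545 reached it in 1 or 2 libraries, and 184 (10.4%) reached it in all 9. Of all transcripts, 15.1% reached it in all 9. Tests were run on transcripts with an FPKM of 1 or more in at least 3 libraries, which 958 antisense transcripts (54.3%) from 760 loci met. Of these, 57 reached FPKM 1 in flower libraries alone, 45 in root alone and 34 in leaf alone. Such transcripts passed the filter through the organ in which they are high, so counts of calls are given beside the same count over all tested transcripts.

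Just inside the filter lay MSTRG.301.3, with 1.0005 FPKM as the level that decides the filter, the lowest of its top 3 libraries. It stood at 0.242, 0.332 and 0.420 FPKM in flower, 0.108, 0.218 and 0.662 in root, and 1.43, 1.0005 and 1.51 in leaf. Just outside lay MSTRG.22794.1, with 0.997 FPKM by the same measure, and leaf values of 0.997, 1.16 and 2.396 FPKM. Both were highest in leaf.

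Tested antisense transcripts had lower levels than reference transcripts and higher ones than stranded intergenic transcripts. The mean over 9 libraries of a tested antisense transcript had a median of 2.83 FPKM and an interquartile range of 1.37 to 7.19 FPKM, against a median of 6.01 FPKM for tested reference transcripts, 2.12 FPKM for tested stranded intergenic transcripts and 3.08 FPKM for all tested transcripts. Of the 1764 antisense transcripts, tested or not, 78 reached 100 FPKM in at least 1 library, as did 4257 of all 109879 transcripts. In each library, 13.6% to 16.1% of the antisense transcripts had values above 0 but under 0.001 FPKM, which come from the estimation and stand for less than 1 fragment.

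The libraries of an organ resembled each other in their antisense transcripts, and some stood apart. Across the 958 tested antisense transcripts, the values on the log2(FPKM + 1) scale had a Pearson's r of 0.74 to 0.90 among flower libraries, 0.81 to 0.92 among root libraries and 0.67 to 0.93 among leaf libraries. A flower and a root library had an r of 0.23 to 0.33, a flower and a leaf library 0.28 to 0.42, and a root and a leaf library 0.26 to 0.53. These are correlations across transcripts, which are not independent replicates. Flower 2 had the lower values within flower (0.74 with both others, where those reached 0.90). Leaf 41 had those within leaf (0.67 and 0.68, where the others reached 0.93) and the highest with root (0.53, with root 33).

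The number of antisense transcripts with an FPKM of 1 or more was 679 ± 5.20 in flower, 676 ± 8.50 in root and 711 ± 12.7 in leaf (SD, n = 3 each). Root and flower libraries had fewer than leaf libraries, without overlap, and the mean differences were -35 for root minus leaf and -31.7 for flower minus leaf. In exact two-sided permutation tests over libraries the p was 0.1 for both, the smallest that 3 against 3 allow (0.2 after Benjamini-Hochberg adjustment over 6 contrasts). For flower against root it was 0.7. At 5 FPKM the order turned: 305 ± 12.53 in flower, 287 ± 3.06 in root and 237 ± 15.6 in leaf. At 100 FPKM the numbers were 29.3 ± 5.13 for flower, 22 ± 2 for root and 13.7 ± 1.53 for leaf. The leaf libraries also had more fragments behind 1 FPKM and the lowest summed FPKM, which was 1042060 ± 182540 in flower, 955568 ± 117148 in root and 704629 ± 73201 in leaf. With all libraries scaled to the same sum, the number at FPKM 1 or more was 649 ± 39.3 for flower, 662 ± 34.4 for root and 782 ± 48.2 for leaf, so the gaps to leaf were larger. The part of the fragments per FPKM was not tested. The median level over the tested antisense transcripts came to 1.77 ± 0.172 FPKM for flower, 1.84 ± 0.111 for root and 1.68 ± 0.0424 for leaf. Root exceeded leaf without overlap (exact permutation p = 0.1, adjusted 0.2), and the contrasts of flower with leaf (p = 0.6) and with root (p = 0.5) overlapped. After scaling all libraries to the same sum, the medians became 1.54 ± 0.157 FPKM for flower, 1.75 ± 0.111 for root and 2.16 ± 0.180 for leaf, so the place of leaf in the order depends on the scaling.

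The share of summed FPKM that was antisense differed between organs, and much of that difference lay in a few abundant transcripts. Antisense transcripts held 2.24% ± 0.0856 of the summed FPKM of flower libraries, 1.55% ± 0.115 of that of root and 1.19% ± 0.135 of that of leaf (SD, n = 3 each). The 10 highest antisense transcripts of each library held a share of its antisense FPKM that averaged 56.1% ± 4.12 for flower, 45.2% ± 2.03 for root and 33.8% ± 10.4 for leaf. When the 10 antisense transcripts with the highest mean over all libraries were left out, a setting chosen after seeing the data, the shares came to 1.16% ± 0.0423 for flower, 1.03% ± 0.0771 for root and 1.03% ± 0.0260 for leaf. Flower still did not overlap the others, and root and leaf overlapped.

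The most abundant antisense transcript in all 3 organs was MSTRG.13264.3 (positions 665155 to 668347, plus strand). It stood at 3685, 2424 and 2392.5 FPKM in flower, at 1711, 1015 and 2542 FPKM in root, and at 309, 329 and 1604 FPKM in leaf. Leaf 41 lay among the root libraries and the other leaf libraries lay far below them. Flower exceeded leaf by 2.34 ± 0.64 (SE) on the log2(FPKM + 1) scale, with an adjusted p of 0.0195 (limma). That call was lost without flower 1 (adjusted p = 0.0709, limma), without leaf 1 (0.0704) or the unnumbered leaf library (0.0714), with no filter (0.113) and with the 6 libraries of flower and leaf alone (0.0963). The reference transcript opposite, CSA028932.1, overlaps it by 1894 nt, tail to tail, and stood at 44.98, 7.33 and 28.5 FPKM in flower, 2.37, 2.53 and 1.87 in root, and 22.4, 25.02 and 12.3 in leaf. The antisense transcript was thus above the reference transcript in all 9 libraries, by 13.2-fold in the unnumbered leaf library and 1361-fold in root 33 at the ends of the range. These ratios are to that reference transcript alone and not to the sum of its locus. The reference transcript was lower in root than in leaf (log2 difference -2.63 ± 0.57, adjusted p = 0.00685, limma), whereas the antisense transcript differed by 1.58 ± 0.64 (adjusted p = 0.0870, limma). Without leaf 41 the antisense difference was 2.36 and passed (adjusted p = 0.00259, limma), as it did with libraries weighted by their distance from the organ mean (array weights, 2.39, adjusted p = 0.000901, limma).

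**Figure D1:**
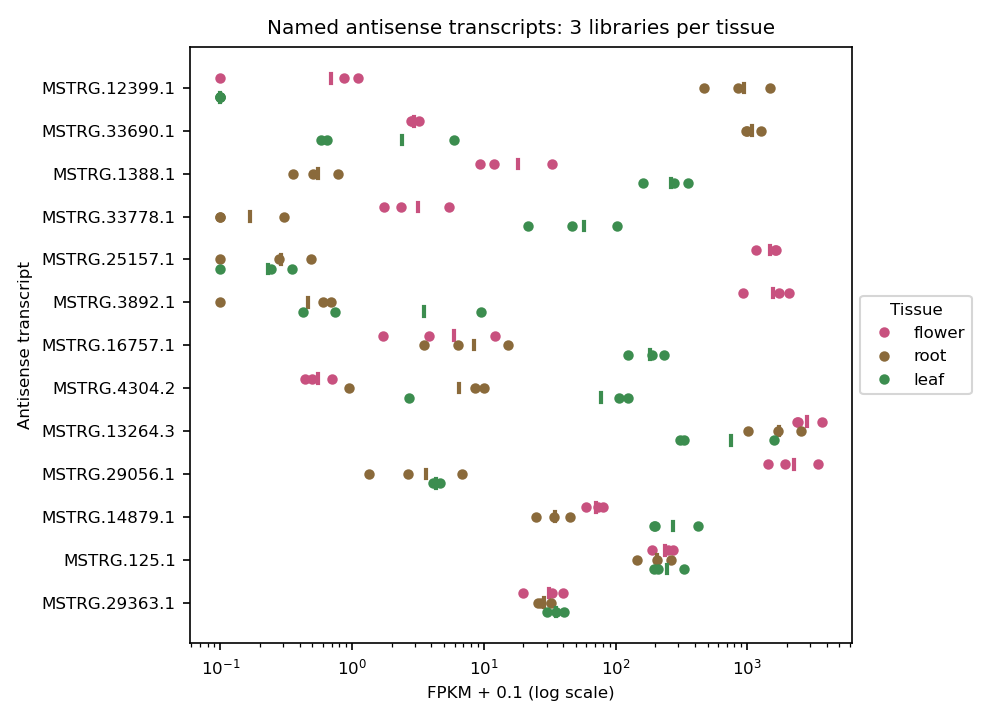
FPKM + 0.1 on a log scale (x axis) of 13 named antisense transcripts (y axis), with 3 points per organ for the libraries and a short bar at their mean, flower above root above leaf within each transcript. The flower points of MSTRG.25157.1, MSTRG.3892.1 and MSTRG.29056.1 and the root points of MSTRG.12399.1 and MSTRG.33690.1 lie far to the right of the other organs, and those of MSTRG.125.1 and MSTRG.29363.1 overlap.

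Of the named antisense transcripts, 3 were abundant in flower and at most 9.36 FPKM in any root or leaf library. MSTRG.25157.1 (positions 141210 to 141683, minus strand) stood at 1653, 1636 and 1175 FPKM in flower, at 0.179, 0 and 0.387 FPKM in root, and at 0.251, 0.143 and 0 FPKM in leaf. MSTRG.3892.1 (positions 651800 to 707516, minus strand) stood at 1749.9, 2066 and 923 FPKM in flower, at 0.586, 0 and 0.505 in root, and at 0.326, 0.645 and 9.36 in leaf. MSTRG.29056.1 (positions 60658 to 61429, plus strand) had the second highest mean in flower, with 3451, 1431 and 1918 FPKM, against 1.25, 2.56 and 6.77 in root and 4.13, 4.04 and 4.56 in leaf. No flower library came near a root or leaf library at any of them.

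The first pair of these had the largest called excesses of flower over both other organs. MSTRG.25157.1 reached FPKM 1 in flower libraries alone. MSTRG.3892.1 reached it outside flower in leaf 41 alone. Both were thus tested only because they are high in flower, so their p-values describe that excess and do not support it. For MSTRG.25157.1, flower minus leaf was 10.35 ± 0.26 (adjusted p = 8.45e-07, limma) and flower minus root was 10.29 ± 0.26 (adjusted p = 4.8e-07, limma). For MSTRG.3892.1 these were 9.05 ± 0.71 (adjusted p = 3.45e-05, limma) and 10.13 ± 0.71 (adjusted p = 1.15e-05, limma). For MSTRG.29056.1 they were 8.66 ± 0.47 (adjusted p = 6.54e-06, limma) and 9.06 ± 0.47 (adjusted p = 2.63e-06, limma).

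In each of these 3 cases the gene opposite was also abundant in flower and low in root and leaf. CSA019025.1, 157 nt of which MSTRG.25157.1 overlaps tail to tail, stood at 8759.7, 8389.9 and 6613 FPKM in flower and at most 3.16 FPKM elsewhere. The antisense transcript held 0.189, 0.195 and 0.178 of the reference level in flower 1, 2 and 45. CSA019025.1 spans 282 nt, and low values of longer loci fitted an FPKM length shortened by 205 to 210 nt in flower. The ratio for this pair may therefore differ widely from one of fragments. CSA020689.1, opposite MSTRG.29056.1 with 616 nt of tail-to-tail overlap, stood at 8267, 3252 and 4595 FPKM in flower, and the ratio of antisense to reference was 0.417, 0.440 and 0.4175. CSA006193.1, which meets MSTRG.3892.1 head to head with an overlap of 4 nt, stood at 2006, 1851 and 1126 FPKM in flower, and the ratio was 0.872, 1.12 and 0.820. Within each pair the ratio was similar in the flower libraries, in which both members were abundant.

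The comparison of root with leaf sets an underground organ against a photosynthetic one. Calls were made where the Benjamini-Hochberg adjusted p over all 55806 tested transcripts was under 0.05 and the difference was 1 or more in log2(FPKM + 1), a scale on which differences of low transcripts are too small. Of the 958 tested antisense transcripts, 185 (19.3%) were higher in root and 116 (12.1%) lower, where the background over all tested transcripts was 17.5% higher and 13.4% lower. The groups did not overlap at 437 antisense transcripts (45.6%), against 49.2% of all tested transcripts. The median difference was 0.01 over antisense transcripts and -0.01 over all. With equal sums the balance turned, among all transcripts as well: 152 antisense transcripts were higher (15.5%, all 13.3%) and 162 lower (16.6%, all 19.2%), with a median of -0.22 for antisense and -0.28 for all transcripts. Without leaf 41 there were 202 higher (21.1%, all 19.6%) and 152 lower (15.9%, all 17.6%).

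The largest excess in root was at MSTRG.12399.1 (positions 348763 to 409504, minus strand), with 857, 1484 and 472 FPKM in root, against a listing at 0 in all 3 leaf libraries. In flower it stood at 1.01, 0 and 0.767 FPKM. Outside root it reached FPKM 1 in flower 1 alone, so it was tested only because it is high in root. Its p-values describe that excess and do not support it. The fitted difference of 9.72 ± 0.43 (adjusted p = 2.51e-06, limma) depends on the pseudocount, because leaf is at 0. It meets CSA011023.1 head to head over 136 nt, and that reference transcript was also a root transcript, with 2721, 4393 and 2274 FPKM in root and 0.226, 0.327 and 0.755 in leaf. Antisense stood at 0.315, 0.338 and 0.208 of the reference level in root 13, 23 and 33. A second antisense transcript, MSTRG.12401.1, chosen here after its values were seen, lies on the same strand at positions 350219 to 410579 and stood at 502, 287 and 162 FPKM in root and at 0, 0.370 and 0.121 in leaf.

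MSTRG.33690.1 (positions 65554 to 85742, minus strand) followed, with 981, 1279.9 and 993 FPKM in root and 0.545, 0.479 and 5.88 in leaf. Its difference was 8.75 ± 0.53 (adjusted p = 9.96e-06, limma), and leaf 41 was the highest of the leaf libraries. The reference transcript inside its span, CSA028797.1, never exceeded 0.257 FPKM. All transcripts of that locus on the reference strand summed to a mean of 29.2 FPKM over 9 libraries, where the antisense transcript averaged 363 FPKM.

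The largest deficits in root were at MSTRG.1388.1 and MSTRG.33778.1. MSTRG.1388.1 (positions 1432497 to 1433132, minus strand) stood at 0.403, 0.257 and 0.687 FPKM in root and 161, 355 and 276 in leaf, and root minus leaf was -7.45 ± 0.47 (adjusted p = 1.18e-05, limma). It faces CSA008917.1, tail to tail over 466 nt, which stood at 23.7, 3.90 and 14.3 FPKM in root and at 5425, 10646 and 11113 FPKM in leaf. The ratio in leaf was 0.0296, 0.0334 and 0.0248, so the antisense transcript was a small part of the reference level there. MSTRG.33778.1 (positions 146518 to 147826, minus strand) was listed at 0, 0 and 0.202 FPKM in root, against 21.6, 46.7 and 103 in leaf, and root minus leaf was -5.50 ± 0.55 (adjusted p = 0.000110, limma). It lies inside the span of CSA004532.1, which itself reached at most 1.69 FPKM, although the transcripts of that locus on the same strand as CSA004532.1 summed to a mean of 328 FPKM.

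Flower was compared with leaf, 2 aerial organs. Of the tested antisense transcripts, 166 (17.3%) were higher in flower and 123 (12.8%) lower, beside a background of 17.3% higher and 14.0% lower. The groups did not overlap at 421 (43.9%), against 46.2% of all. Equal sums gave 142 higher (14.5%, all 12.6%) and 196 lower (20.04%, all 21.5%), with a median of -0.26 for antisense and -0.35 for all transcripts. Without leaf 41 there were 160 higher (16.7%, all 16.8%) and 130 lower (13.6%, all 15.0%). Without flower 2 there were 193 higher (20.1%, all 18.2%) and 118 lower (12.3%, all 13.2%).

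The largest excesses in flower were those of MSTRG.25157.1 and MSTRG.3892.1, given above. The largest deficit was at MSTRG.16757.1 (positions 232823 to 347184, plus strand), which spans 114362 nt. It stood at 1.63, 3.73 and 12.0 FPKM in flower and at 124, 190.1 and 234 FPKM in leaf, and flower minus leaf was -5.03 ± 0.64 (adjusted p = 0.000373, limma). It stood at 6.26, 3.39 and 15.1 FPKM in root. Its span covers 3 candidate genes on the other strand, of which none exceeded 16.2 FPKM in a library. MSTRG.4304.2 (positions 725356 to 748688, minus strand) followed, with 0.397, 0.341 and 0.605 FPKM in flower and 106, 124 and 2.62 in leaf. Outside leaf it reached FPKM 1 in root 23 and root 33 alone, so it passed the filter only with its leaf libraries. Its p-value describes the deficit in flower and does not support it. Leaf 41 lay far below the other leaf libraries, and the difference of -4.66 ± 1.25 (adjusted p = 0.0181, limma) lost its call when leaf 1, the unnumbered leaf library or flower 1 was left out, with no filter, and with the 6 libraries of the 2 organs alone.

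Flower was compared with root last, and this contrast had the most calls, among antisense transcripts as among all. There were 193 antisense transcripts higher in flower (20.1%) and 205 lower (21.4%), where the background was 20.1% higher and 20.7% lower. The groups did not overlap at 503 (52.5%), against 56.1% of all. Without flower 2 there were 208 higher (21.7%, all 21.97%) and 202 lower (21.1%, all 20.1%). The largest differences were those at MSTRG.25157.1 and MSTRG.3892.1 on the higher side, and on the lower side at MSTRG.12399.1 (-9.11 ± 0.43, adjusted p = 1.94e-06, limma) and MSTRG.33690.1 (-8.13 ± 0.53, adjusted p = 8.08e-06, limma). The last stood at 2.69, 3.09 and 2.72 FPKM in flower.

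The 3 comparisons share libraries. In each, the share of antisense transcripts called lay close to the background over all transcripts, and below that of reference transcripts, of which 35.4% were called in root against leaf, 38.6% in flower against leaf and 45.7% in flower against root. The corresponding shares of antisense transcripts were 31.4%, 30.2% and 41.5%, beside backgrounds of 30.9%, 31.3% and 40.8%. Tested reference transcripts also had higher levels, which the log2(FPKM + 1) scale favours; the part of level in this difference was not tested.

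**Figure D2:**
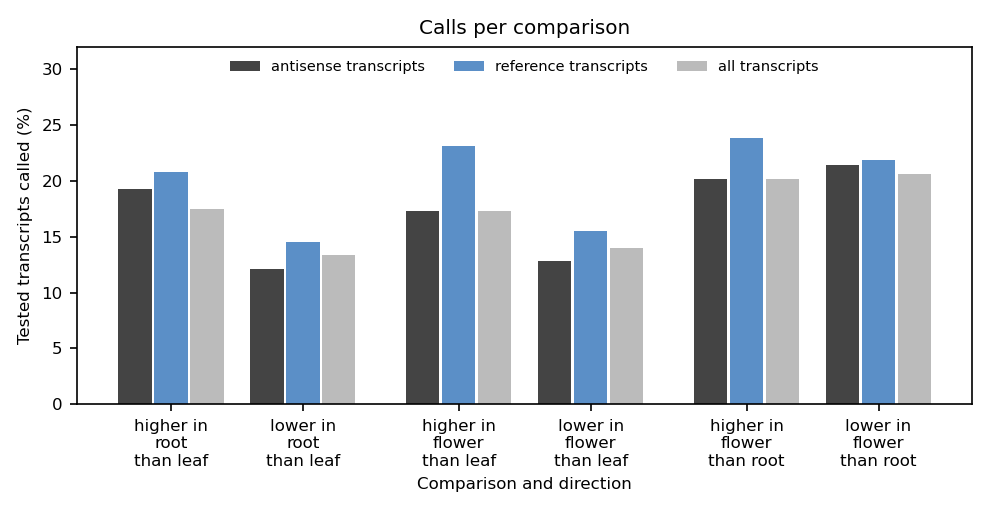
Percentage of tested transcripts (y axis) called higher or lower in each comparison (x axis), for 958 antisense, 13427 reference and all 55806 tested transcripts. Antisense bars lie within 2 percentage points of the bars for all transcripts, for example 19.3% against 17.5% higher in root than leaf.

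The calls were combined into organ profiles. Enriched means called higher in an organ than in both others. Flower-enriched were 125 antisense transcripts (13.05%, background 12.5%) from 115 loci, root-enriched 140 (14.6%, background 12.4%) from 119 loci and leaf-enriched 66 (6.89%, background 6.97%) from 61 loci. Fewer were called lower in an organ than in both others: 32 in flower (3.34%, background 4.78%), 34 in root (3.55%, background 4.75%) and 29 in leaf (3.03%, background 3.57%). In none of the 3 comparisons were 396 (41.3%, background 41.9%) called. The level of enriched antisense transcripts in their own organ had a median of 12.0 FPKM for flower, 10.7 for root and 8.32 for leaf. With equal sums 104 were flower-enriched (10.6%, all 9.71%), 119 root-enriched (12.2%, all 10.3%) and 97 leaf-enriched (9.92%, all 10.7%). Antisense transcripts of a locus did not always share a profile: of 139 loci with 2 or more tested antisense transcripts, 60 had the same profile in all of them, and 5 held transcripts enriched in different organs.

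**Figure D3:**
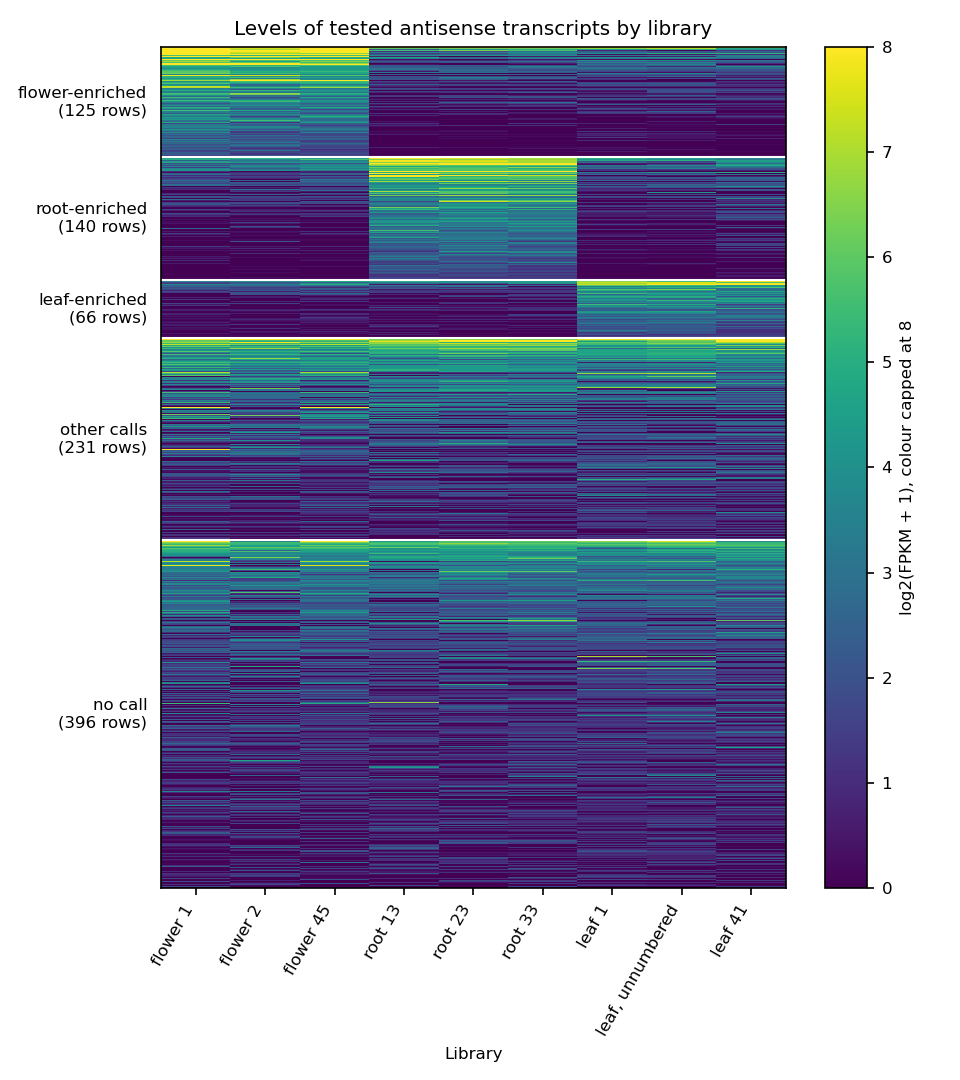
Colour gives log2(FPKM + 1), capped at 8, of the 958 tested antisense transcripts (rows, grouped by profile and sorted by mean level) in the 9 libraries (columns). The 125 flower-enriched, 140 root-enriched and 66 leaf-enriched transcripts were grouped by these same values, and many of the 396 without a call are dim in all libraries.

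Span went with the organ of enrichment among antisense transcripts. Root-enriched antisense transcripts had a median span of 7494 nt, against 2902 nt for flower-enriched and 2937 nt for leaf-enriched ones. Of 197 tested antisense transcripts spanning over 20000 nt, 14 (7.11%) were flower-enriched and 39 (19.8%) were root-enriched, from 31 of 153 loci. Of 226 spanning up to 1000 nt, 34 (15.0%) were flower-enriched and 25 (11.1%) root-enriched. Over all tested transcripts, 9.94% of those over 20000 nt were flower-enriched and 11.5% root-enriched, and of those up to 1000 nt, 11.5% and 15.2%. At over 20000 nt, the flower-enriched and root-enriched shares with equal sums were 4.46% and 17.3% of antisense and 7.07% and 9.19% of all transcripts. With a pseudocount of 5 they were 5.58% and 13.2% of antisense and 5.67% and 6.19% of all. Without leaf 41 they were 6.599% and 22.8% of antisense and 9.47% and 13.1% of all, and without flower 2 they were 8.12% and 19.3% of antisense and 10.3% and 11.6% of all. These are counts over transcripts, which are not independent replicates, and the difference was not tested.

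**Figure D4:**
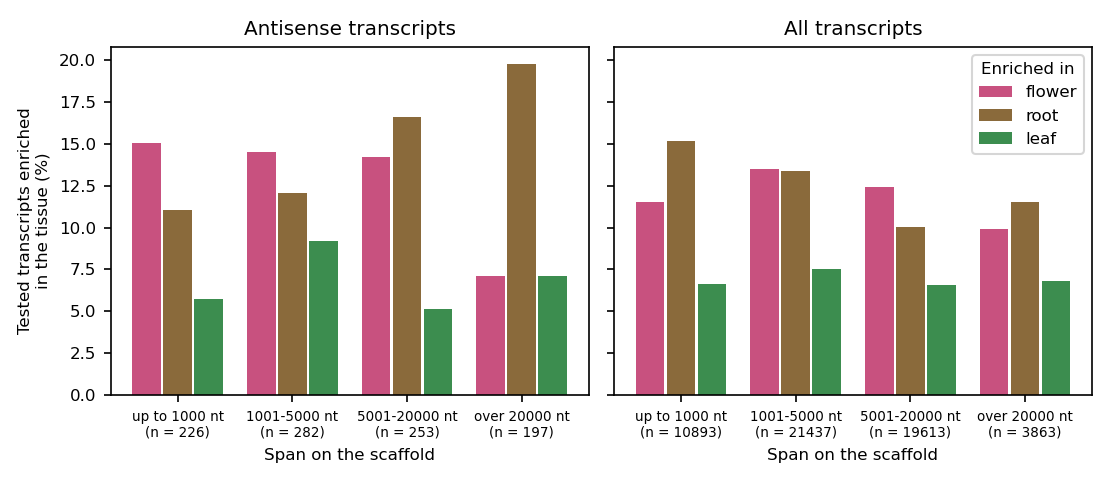
Percentage of tested transcripts (y axis) enriched in flower, root or leaf, by span on the scaffold (x axis), for antisense transcripts on the left and all transcripts on the right. Among antisense transcripts the root bar is 11.1% up to 1000 nt and 19.8% over 20000 nt, while the flower bar is 15.0% and 7.11%.

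The longest and the shortest tested antisense transcripts show what these spans hold. MSTRG.3032.1 (positions 229530 to 663966, minus strand) spans 434437 nt and 4 candidate genes on the other strand. It stood at 0.374, 1.56 and 1.76 FPKM in flower, 3.11, 1.61 and 1.36 in root, and 0.739, 0.684 and 0.749 in leaf, and was called in no comparison. MSTRG.11224.1 (positions 152782 to 153015, minus strand) spans 234 nt, a length at which FPKM rests on few fragments. It stood at 2.59, 0 and 8.86 FPKM in flower, 71.2, 36.4 and 60.6 in root, and 1.30, 0.748 and 3.69 in leaf. Root was above flower and leaf without overlap, by 4.37 ± 0.75 over leaf (adjusted p = 0.00202, limma), and flower minus root was -4.07 ± 0.75 (adjusted p = 0.00207, limma). It touches CSA021117.1 head to head by 3 nt, and that gene stood at 70.2, 111 and 86.7 FPKM in root and at most 5.498 FPKM elsewhere.

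Some antisense transcripts were steady. MSTRG.125.1 (positions 2030187 to 2057306, plus strand) had the highest mean among tested antisense transcripts whose largest difference between organs was under 0.5, with 229 ± 54.7 FPKM (SD over 9 libraries). It stood at 271, 189 and 249 FPKM in flower, 262, 146 and 207 in root, and 197, 211 and 331 in leaf, so that the organs overlapped. The reference transcript inside its span, CSA020380.1, was listed at 0 in 8 libraries and at 0.0580 FPKM in root 13. MSTRG.29363.1 (positions 113342 to 185066, plus strand) came next, with 39.9, 19.8 and 33.02 FPKM in flower, 26.9, 25.8 and 32.3 in root, and 29.9, 40.2 and 35.5 in leaf. The gene inside its span, CSA035634.1, was not steady: it stood at 93.4, 83.1 and 35.1 FPKM in flower, 11.1, 10.7 and 5.65 in root, and 6.72, 8.21 and 1.104 in leaf, with flower higher than leaf by 3.63 ± 0.60 (adjusted p = 0.00158, limma).

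The pairs were then compared as a whole. Both members were tested in 441 pairs, from 352 antisense and 338 reference loci. In 311 further pairs the antisense transcript was tested and the reference transcript was too low. Over the 441 pairs the mean level had a median of 3.29 FPKM for antisense and 10.4 FPKM for reference transcripts, and the ratio of the means had a median of 0.334 and an interquartile range of 0.105 to 0.932. The antisense transcript was below its reference transcript in all 9 libraries in 194 pairs and above it in all 9 in 22. Against the sum of all transcripts of the reference locus on its strand, the median ratio was 0.127, and 8 antisense transcripts were above that sum in all 9 libraries.

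Where both members were called, they mostly differed in the same direction. For root against leaf, both were called in 85 pairs, 82 in the same direction (58 higher and 24 lower in root) and 3 in opposite directions. For flower against leaf, both were called in 96 pairs, 88 in the same direction (56 higher and 32 lower in flower) and 8 in opposite directions. For flower against root, both were called in 142 pairs, 127 in the same direction (72 higher and 55 lower in flower) and 15 in opposite directions. These same-direction pairs came from 72, 78 and 109 antisense loci. In the same order of comparisons, the antisense transcript alone was called in 63, 49 and 63 pairs. The reference transcript alone was called in 77, 85 and 94 pairs, and neither member in 216, 211 and 142. The 3 comparisons share libraries, and the pairs were not tested as a set. The reference transcript had the larger difference of the 2 members in 64 of 82, 55 of 88 and 71 of 127 same-direction pairs. Overlapping reads that were not told apart by strand would be counted for both members, and the part of this in the shared direction was not tested.

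**Figure D5:**
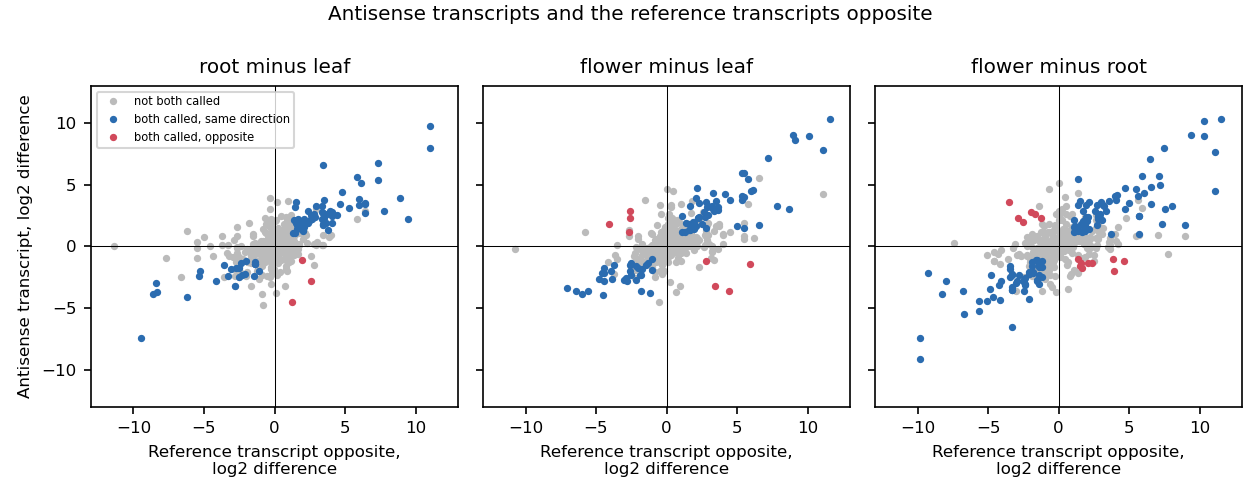
Difference of the antisense transcript (y axis) against that of the reference transcript opposite (x axis), both on the log2(FPKM + 1) scale, for 441 pairs in each comparison. Blue points, with both members called in the same direction, number 82, 88 and 127, and red points, called in opposite directions, number 3, 8 and 15.

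Most opposite calls were in tail-to-tail pairs, which are also the most frequent of the 441 pairs (202). All 3 in root against leaf and 7 of 8 in flower against leaf were tail to tail, where 45 pairs had both members called in each comparison, and the remaining 1 was head to head. In flower against root they were 9 of 65 tail-to-tail pairs with both members called, 2 of 34 head-to-head pairs, 2 of 21 with the antisense transcript inside and 2 of 22 with the reference transcript inside. When the antisense transcript was flower-enriched, its reference transcript was flower-enriched in 45 of 73 pairs (61.6%), against 42 of the other 368 pairs (11.4%). When it was root-enriched, the reference transcript was root-enriched in 39 of 66 pairs (59.1%), against 26 of the other 375 (6.93%). When it was leaf-enriched, this held in 12 of 34 pairs (35.3%), against 20 of the other 407 (4.91%). These shares leave out the 311 pairs whose reference transcript was too low to be tested. An antisense or reference transcript that reached FPKM 1 in 1 organ alone could enter only through that organ. The other pairs include those whose antisense transcript was enriched in another organ, which can lower the share set beside each.

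The pairs called in opposite directions were few, and the most marked of each comparison are given. MSTRG.1343.1 (positions 1466846 to 1474542, plus strand) was the most marked for root against leaf and for flower against leaf. It was a leaf transcript, with at most 0.529 FPKM in flower and at most 2.14 FPKM in root, against 13.7, 10.9 and 15.2 FPKM in leaf. Its reference transcript CSA003471.1, which it overlaps tail to tail by 237 nt, was low in leaf: 162, 108 and 159 FPKM in flower and 29.7, 111 and 15.7 FPKM in root, against 3.56, 7.52 and 5.92 in leaf. Flower minus leaf was -3.62 ± 0.45 for the antisense transcript (adjusted p = 0.000360, limma) and 4.46 ± 0.61 for the reference transcript (adjusted p = 0.000598, limma). Root minus leaf was -2.77 ± 0.45 (adjusted p = 0.00158, limma) and 2.58 ± 0.61 (adjusted p = 0.0106, limma). Outside leaf, MSTRG.1343.1 reached FPKM 1 in root 23 and root 33 alone. It passed the filter only with its leaf libraries, so its p-values describe its excess there and do not support it.

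For flower against root the most marked was MSTRG.28195.1 (positions 251071 to 258593, minus strand), with 19.4, 41.8 and 12.8 FPKM in flower and 1.05, 0.895 and 0.730 in root. It was listed at 0 in all leaf libraries. CSA001563.1, which it touches tail to tail by 6 nt, stood at 38.4, 35.2 and 42.1 FPKM in flower and 438, 609 and 362 in root. Flower minus root was 3.60 ± 0.40 for the antisense transcript (adjusted p = 0.000130, limma) and -3.54 ± 0.29 for the reference transcript (adjusted p = 2.29e-05, limma). Outside flower, MSTRG.28195.1 reached FPKM 1 in root 13 alone and so passed the filter only through flower. Its p-value describes its excess there and does not support it. In neither pair did the organs compared overlap, for either member.

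The highest antisense transcript in leaf after MSTRG.13264.3 was MSTRG.14879.1 (positions 204198 to 245668, minus strand). It stood at 59.9, 73.3 and 80.5 FPKM in flower, 24.7, 45.3 and 33.7 in root, and 196, 199 and 424 in leaf, and the 3 organs did not overlap. Root minus leaf was -2.89 ± 0.37 (adjusted p = 0.000403, limma) and flower minus leaf was -1.83 ± 0.37 (adjusted p = 0.00429, limma). Flower minus root was 1.05 ± 0.37 (adjusted p = 0.0427, limma). That call was lost with equal sums (adjusted p = 0.0682, limma), quantile normalization (0.0854) and no filter (0.0807), among other settings. The 3 candidate genes opposite were listed at 0 in most libraries, with 8.42 FPKM as their highest value.

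Outside the tested transcripts, 4 antisense transcripts reached 100 FPKM in fewer than 3 libraries, and they were named after their values were seen. MSTRG.33362.1 stood at 1533 FPKM in flower 2 and at no more than 0.542 FPKM in any other library. MSTRG.41390.1 stood at 546 FPKM in flower 1 and 304 in flower 45, and MSTRG.45281.1 at 148 and 65.9, with both near 0 in flower 2. MSTRG.4304.1, an isoform of MSTRG.4304.2, stood at 80.8 FPKM in leaf 1 and 174 in the unnumbered leaf library and near 0 in leaf 41. In each of these, flower 2 or leaf 41 differed from the other libraries of its organ.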

How the data were processed

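Per the labels' protocols, total RNA came from a TRIzol extraction, and ribosomal RNA was removed before library preparation. HISAT2, StringTie and Cuffnorm are named in the submitters' processing notes. For these tools no versions or settings, for the counting no strand setting and for the positions no genome build are given in the sources read. The authors deposited FPKM values per assembled transcript, 1 column for each of 9 libraries, and 0 columns of per-sample values were left unused. Columns were matched to samples by title; the leaf column numbered 23, a number in no leaf title, stands for a leaf library of unknown number. Positions are those of the table, which names no scaffold, and 0 identifiers matched the RefSeq gene table, so no gene names or sequences are given.

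The model, fitted to the whole table in limma 3.58.1 under R 4.3.3, used log2(FPKM + 1), a variance trend, 1 mean per organ and 6 residual degrees of freedom. The tested set was the 55806 transcripts that reached FPKM 1 in 3 or more libraries, and p-values were adjusted over all of them. The fit was tested on simulated data with independent normal noise and with shifts in flower alone, at transcripts of higher level. That simulation did not cover changes at low transcripts or libraries that stand apart. Named transcripts are, in each comparison, the 2 with the largest difference in each direction among called ones whose groups do not overlap and the pair with the most marked opposite calls; the 2 highest per organ; the longest, the shortest, 2 steady ones, and those at the filter. Where several reference transcripts of the opposite locus overlapped, the one with the highest mean was used. Fragments per FPKM were read from low values of single-transcript loci of 600 to 3000 nt without strand, where 99.9% to 100% of values per library lay within 0.05 of a whole number. No count test was run, since the fragment counts of spliced transcripts were not recovered. The members and the choice of tests were made with earlier results of these data known. Alternatives covered pseudocount, filter, scaling, weights, trend, libraries left out and pair rules.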

Additional observations from a re-analysis of the deposited data

How the results depend on the processing

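The called differences printed in the report kept their direction and their call under the alternatives in which they were tested, with few exceptions. These were flower minus leaf at MSTRG.4304.2 and MSTRG.13264.3 and flower minus root at MSTRG.14879.1, all given there. The root minus leaf difference of MSTRG.13264.3, also given there, gained a call. With a pseudocount of 5, the antisense transcripts called higher and lower were 109 and 55 in root minus leaf, 102 and 58 in flower minus leaf, and 111 and 118 in flower minus root. These were 11.4% and 5.74%, 10.6% and 6.05%, and 11.6% and 12.3% of the tested antisense transcripts, against 9.86% and 6.18%, 10.9% and 5.99%, and 11.6% and 10.6% of all. Enriched were then 78 in flower (8.14%, all 8.10%), 85 in root (8.87%, all 7.07%) and 37 in leaf (3.86%, all 3.57%). Pairs called in the same direction were 46, 50 and 79, and in opposite directions 1, 5 and 3, in that order of comparisons. With a filter of FPKM 5, which leaves 382 antisense transcripts, the counts were 115 and 55, 104 and 54, and 101 and 116. As shares of antisense transcripts these were 30.1% and 14.4%, 27.2% and 14.1%, and 26.4% and 30.4%. Over all transcripts they were 25.4% and 16.5%, 26.5% and 17.0%, and 28.1% and 26.96%. The enriched ones were 73 in flower (19.1%, all 18.3%), 80 in root (20.9%, all 16.8%) and 28 in leaf (7.33%, all 7.85%). The pairs were 48, 41 and 64 in the same direction, with 1 opposite in root minus leaf and 4 in flower minus root. Equal sums gave 196 lower in flower minus leaf (20.04%, all 21.5%) and 5 opposite pairs in root minus leaf. Array weights gave 203 lower in root minus leaf (21.2%, all 21.5%) and 129 pairs in the same direction there. Opposite pairs were then 11 in root minus leaf and 13 in flower minus leaf. The 6 libraries of the 2 organs alone gave 5 opposite pairs in root minus leaf, and locus numbers within 3 gave 6. Where the overlap had to cover 0.5 of the antisense span or more, 523 pairs were found, with 29, 28 and 36 called in the same direction and 8 opposite in flower minus root. The causes were not tested, apart from the fewer transcripts and pairs that the stricter filter and overlap leave.

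The number of antisense transcripts at FPKM 1 or more turned to 50 higher in root minus leaf and 67.7 higher in flower minus leaf at a threshold of 5, and to -13 in flower minus root with equal sums. Equal sums turned the difference of median FPKM to -0.415 in root minus leaf and -0.619 in flower minus leaf. The difference in antisense percent of summed FPKM, without the 10 highest antisense transcripts, was -0.000611 in root minus leaf, 0.133 in flower minus leaf and 0.133 in flower minus root. Without the 2 highest of each organ it was 0.200, 0.711 and 0.510. Both settings were chosen after seeing the data.

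Leaving out each library in turn, with the tested transcripts kept, gave 139 to 202 called higher and 89 to 152 lower in root minus leaf, 146 to 193 and 102 to 130 in flower minus leaf, and 154 to 208 and 171 to 215 in flower minus root. Over all transcripts the shares called higher and lower were 13.6% to 19.6% and 9.88% to 17.6%, 15.0% to 18.2% and 11.1% to 15.0%, and 17.3% to 21.97% and 17.5% to 21.7%, where the antisense shares were 14.5% to 21.1% and 9.29% to 15.9%, 15.2% to 20.1% and 10.6% to 13.6%, and 16.1% to 21.7% and 17.8% to 22.4%. Enriched were 106 to 139 in flower, 110 to 156 in root and 58 to 82 in leaf. At these ends the antisense shares were 11.1% and 14.5%, 11.5% and 16.3%, and 6.05% and 8.56%. Over all transcripts, with the same library left out, they were 10.8% and 13.3%, 10.1% and 14.1%, and 5.58% and 8.84%. Same-direction pairs numbered 59 to 96, 74 to 99 and 108 to 130, and opposite pairs 2 to 5, 6 to 10 and 9 to 16. The 5 came without flower 2 and the 9 without root 23. The difference in the number at FPKM 1 or more was -1.5 to 6.5 in flower minus root, negative without root 23. The difference of median FPKM was -0.00714 to 0.163 in flower minus leaf, negative without flower 1, and -0.169 to 0.00104 in flower minus root, positive without flower 2. When the filter was also applied anew to the remaining libraries, a setting chosen after seeing the data, transcripts that had reached FPKM 1 in exactly 3 libraries could drop out, MSTRG.25157.1 among them. Called higher and lower were then 101 to 201 and 61 to 127, 92 to 168 and 74 to 120, and 109 to 202 and 124 to 213, beside 10.3% to 20.7% and 7.82% to 16.1%, 11.2% to 18.6% and 9.46% to 15.2%, and 14.2% to 22.8% and 14.0% to 22.9% of all transcripts. Enriched were 53 to 118 in flower, 66 to 157 in root and 31 to 67 in leaf, lowest without flower 1, root 23 and the unnumbered leaf library. At these ends the antisense shares were 6.11% and 13.4%, 7.53% and 17.8%, and 3.52% and 7.75%. Over all transcripts, with the same library left out, they were 7.01% and 12.7%, 6.23% and 14.9%, and 3.47% and 7.18%. Same-direction pairs numbered 42 to 94, 51 to 82 and 89 to 130, and opposite pairs 2 to 5, 6 to 9 and 3 to 16.

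No paired analysis was possible because the columns of any pair of organs share at most 1 number: flower and leaf share 1, and root and leaf share 23, which is in no leaf title. The flower and leaf titles also share 2, but no leaf column carries it. Depth limits the transcripts near FPKM 1, and 3 libraries against 3 limit every exact test.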
